A study of Mus musculus with 16 samples.

Results

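The Gadd45 stress gene family was measured here by 4 probe sets for its 3 genes, out of 12422 tested probe sets (for 8251 named genes) on Affymetrix mouse arrays. Members were all probe sets whose only gene symbol in the platform annotation is Gadd45a (102292_at), Gadd45b (102779_at and 161666_f_at) or Gadd45g (101979_at), and each probe set is given apart. A probe set is a group of short probes that read 1 stretch of a transcript, and its intensity is its brightness on the deposited linear scale. The suffix _f_at is Affymetrix's mark for probes that also match other sequences of a family, so signal from such sequences cannot be told apart from Gadd45b signal on 161666_f_at.

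The 16 arrays held total RNA of thymocytes labelled CD4+CD8+ (double-positive), taken from fetal thymus grown as an organ culture (FTOC). Cells came from BDC2.5 transgenic mice, whose T cells carry the receptor of a diabetogenic CD4 T cell clone, or from wild-type mice. The background was NOD, a strain that develops autoimmune diabetes, or B6g7, which carries the NOD MHC haplotype on C57BL/6. BDC2.5 cells had peptide for 16 h, on the NOD (n = 3) and on the B6g7 background (n = 3), or no peptide, again on NOD (n = 3) and on B6g7 (n = 3). Wild-type NOD (n = 2) and wild-type B6g7 (n = 2) cells completed the 6 groups. Peptide sequence, dose and age are not in the labels, which also do not say whether wild-type cultures had peptide. They do not say that arrays of a group came from separate animals or cultures, so the p-values measure the spread between these arrays, which may be technical. Fewer cells of a type and less RNA per cell cannot be told apart in such bulk RNA.

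Gadd45 proteins are small, acidic, mainly nuclear stress proteins with no enzyme activity of their own. They act by binding partners: the kinase Map3k4, which starts the p38 and JNK cascades, the DNA clamp PCNA, the inhibitor Cdkn1a, and the mitotic kinase Cdk1 with cyclin B. Gadd45a is the classical p53 target of the family and restrains an alternative route of p38 activation in T cells, Gadd45b is induced by NF-kB and by antigen receptor signals, and Gadd45g is cytokine-induced and acts with Gadd45b in p38 activation and interferon-gamma production of T helper cells.

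The 250 bases before the annotated start of each gene are shown as a description. Whether the sites in them bear on the values with peptide was not tested. They come from RefSeq on mouse build GRCm38.p6, where all 3 members were matched. Capitals mark the motifs found.
Gadd45b, chr10:80929841-80930090, plus strand: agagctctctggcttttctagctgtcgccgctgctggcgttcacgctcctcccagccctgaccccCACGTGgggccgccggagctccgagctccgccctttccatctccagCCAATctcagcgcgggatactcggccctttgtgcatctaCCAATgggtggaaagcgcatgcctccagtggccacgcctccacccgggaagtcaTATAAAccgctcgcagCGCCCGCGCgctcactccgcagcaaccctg
Gadd45a, chr6:67037408-67037657, minus strand: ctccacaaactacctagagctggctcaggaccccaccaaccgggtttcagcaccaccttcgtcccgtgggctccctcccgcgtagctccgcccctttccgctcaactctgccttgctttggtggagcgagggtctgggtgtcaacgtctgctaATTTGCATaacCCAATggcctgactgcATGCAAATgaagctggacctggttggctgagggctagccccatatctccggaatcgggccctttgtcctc
Gadd45g, chr13:51846425-51846674, plus strand: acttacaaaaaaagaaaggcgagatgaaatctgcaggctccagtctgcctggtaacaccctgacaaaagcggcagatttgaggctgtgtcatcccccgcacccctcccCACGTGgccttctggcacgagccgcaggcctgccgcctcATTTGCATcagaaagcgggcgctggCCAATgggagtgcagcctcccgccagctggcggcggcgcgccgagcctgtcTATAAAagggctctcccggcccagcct

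Both strands were searched for 9 motifs, chosen with these sequences in view, and no 2 of the matches overlapped. Gadd45b held an Egr site (GCGNGGGCG, minus strand) beginning 30 bases before the start, which 4.7% of all 32851 mouse promoter windows of this length held, a TATA box (TATAAA) at 46 bases, which 12.4% held, 2 CCAAT boxes (CCAAT) at 100 and 139 bases, which 33.8% held, and an E-box (CACGTG) at 185 bases, which 6.02% held. Gadd45a had no TATA box but 2 octamers (ATTTGCAT), at 97 bases and, on the minus strand, at 70 bases, with a CCAAT box between them at 86 bases, and 1.6% of windows held an octamer. Gadd45g had an octamer at 103 bases, a CCAAT box at 78 bases, a TATA box at 27 bases and an E-box at 142 bases. The NF-kB consensus (3.9% of windows), the AP-1 site (TGANTCA, 6.75%), the CArG box (1.47%) and the CRE (TGACGTCA, 1.55%) were not in these letters of any of the 3 genes.

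The sample label and the array series were checked first. All 12 measured markers of double-positive thymocytes, among them Cd4, Cd8a, Rag1 and Ptcra, lay above the array's median intensity on every array. So did 5 of 7 B cell markers, 4 of 8 mesenchyme and endothelium markers, and 1 or 2 markers of each other list. The check therefore does not show that other cells were absent. Median intensity lay between 54.7 and 59.1 over the arrays. The last-numbered array of each group (number 3 in BDC2.5 groups, number 2 in wild-type groups) stood apart in the beta-actin controls: the 3' minus the 5' value was 1.36 to 1.96 (log2) in these 6 arrays and 2.24 to 3.27 in the other 10. The labels give no reason for this. Peptide and strain comparisons hold equal numbers of them on both sides. Transgene comparisons do not, since they make up 1 of 3 BDC2.5 arrays and 1 of 2 wild-type arrays.

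**Figure D1:**
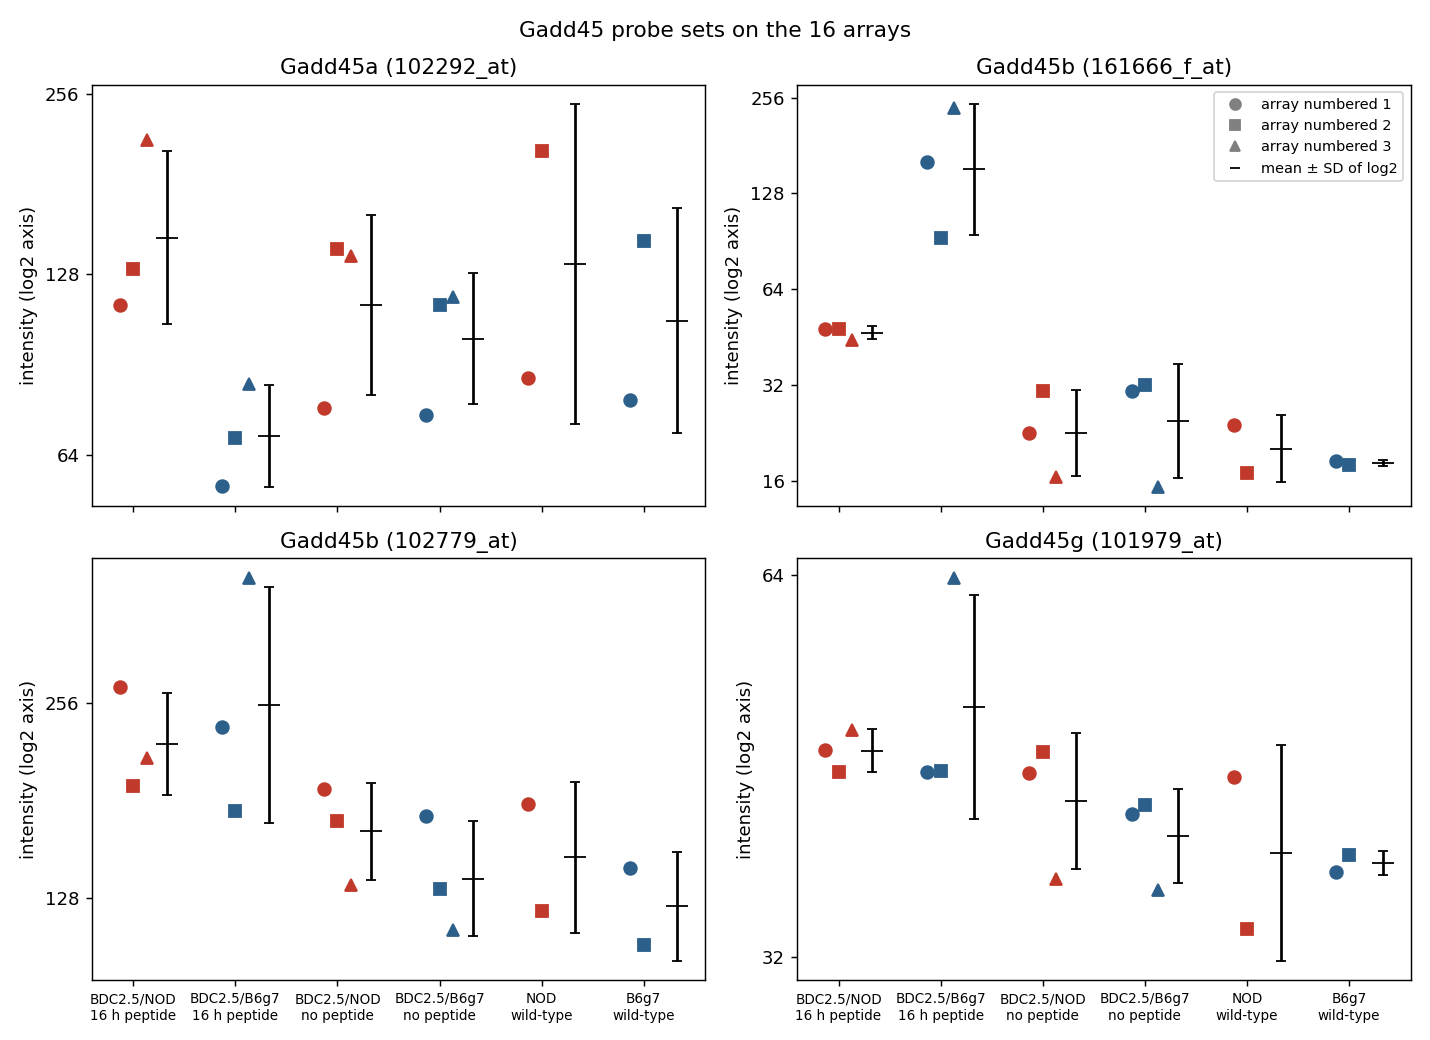
Intensity of each Gadd45 probe set on the 16 arrays, on a log2 axis that differs between panels, by group (red NOD, blue B6g7), with marker shape giving the array's number in its group and bars giving the mean ± SD of log2 values. On 161666_f_at of Gadd45b the 3 BDC2.5/B6g7 arrays with peptide lie at 92.7 to 237 and all 13 others at or under 48.1.

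The first comparison was that of 16 h of peptide with no peptide in BDC2.5/B6g7 thymocytes. Gadd45b rose on 161666_f_at while 102779_at of the same gene, Gadd45a and Gadd45g did not pass the test. On 161666_f_at Gadd45b had 161, 92.7 and 237 with peptide (arrays numbered 1, 2 and 3), against 30.6, 31.9 and 15.3 with no peptide. Every array with peptide was above every array without it, and the array numbered 3 was both the highest with peptide and the lowest without. The mean log2 value was 7.25 ± 0.68 with peptide and 4.62 ± 0.60 with no peptide (SD, n = 3 each), a log2 difference of 2.63 ± 0.33 (standard error, limma adjusted p = 0.0243). This was 1 of 4 Gadd45 probe sets called as higher, and also the only 1 called of all 12422 (0.00805%). That share is this probe set alone, so it gives no separate background. Its p was the lowest of all.

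Between same-numbered arrays the ratio of Gadd45b on 161666_f_at was 5.26, 2.90 and 15.5. All 3 values with no peptide lay under 32, and with values under 32 set to 32 the log2 difference was 2.25, so the size of these ratios is uncertain. Without the last-numbered arrays it was 1.97 (adjusted p = 0.0266). The call was kept in 6 of 16 fits that left out 1 array, the log2 difference lying between 2.29 and 2.99 in those 16 fits. It ended without any 1 of the B6g7 arrays with no peptide (adjusted p 0.0541 to 0.0696) and when the peptide array numbered 1 (0.23) or 3 (0.0732) of B6g7 was left out. It also ended without arrays that enter only through the shared spread, which were both wild-type B6g7 arrays (0.057 and 0.0583), the NOD array with no peptide numbered 1 (0.0695) and the NOD peptide arrays numbered 1 and 2 (0.0611 and 0.0594). A fit of the 6 B6g7 arrays alone gave adjusted p = 0.637.

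The other Gadd45b probe set, 102779_at, had 235, 174 and 400 with peptide in BDC2.5/B6g7, against 171, 132 and 114 with no peptide. The groups did not overlap, though the lowest array with peptide lay close above the highest without it. The log2 difference was 0.89 ± 0.29 (adjusted p = 1), and between same-numbered arrays the ratio was 1.38, 1.32 and 3.51. Without the last-numbered arrays the log2 difference was 0.43. On both probe sets of Gadd45b the array numbered 3 with peptide was the highest of all 16.

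Gadd45g, the cytokine-induced member, had 44.7, 44.8 and 63.6 with peptide in BDC2.5/B6g7, against 41.5, 42.2 and 36.1 with no peptide. The groups did not overlap, but the arrays numbered 1 and 2 with peptide lay close above those without. On the log2 scale the difference was 0.34 ± 0.15 (adjusted p = 1), and 0.098 without the last-numbered arrays. In all, 3 of 4 Gadd45 probe sets were higher with no overlap between the groups, against 3.48% of all probe sets.

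Gadd45a, the classical p53 target, had 56.8, 68.1 and 84.1 with peptide in BDC2.5/B6g7, against 74.7, 114 and 117 with no peptide. The ranges overlapped, yet each array with peptide was below the same-numbered array without it, at 0.76, 0.598 and 0.717 times its value. The log2 difference was -0.54 ± 0.37 (adjusted p = 1, and 0.53 with the replicate number as a block). Gadd45a was thus the 1 member with lower values with peptide in this strain, without passing the test.

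The marker lists were also compared between the same arrays, where 4045 of 8251 genes were higher with peptide. The double-positive sums overlapped, and the myeloid and dendritic sums did not. The summed intensity of 11 measured myeloid and dendritic markers was 593 to 615 with peptide and 483 to 571 with no peptide in BDC2.5/B6g7, with 7 of the 11 higher, and the sum of the 12 double-positive markers was 9551 to 13870 with peptide and 13540 to 15550 without, with 9 of 12 lower. No marker was at 0, 5 of the 11 myeloid markers (Itgam and Fcer1g among them) were under the array median on all arrays, and 0 of either list passed the test. The other lists were split, with 4 of 7 B cell, 4 of 7 thymic epithelium and 3 of 8 mesenchyme and endothelium markers higher. So were 2 of 4 erythroid and 3 of 5 NK and innate markers, and 0 of these lists were called. The part of all these markers in the Gadd45 values was not tested.

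The second comparison was the same in BDC2.5/NOD thymocytes. No Gadd45 probe set passed the test, as was so for 0% of all probe sets (limma called 0 of 12422, with 207 at an unadjusted p under 0.05). On 161666_f_at Gadd45b had 47.8, 48.1 and 44.3 with peptide in BDC2.5/NOD, against 22.6, 30.7 and 16.4 with no peptide. The groups did not overlap, and the peptide arrays lay close together. On the log2 scale the difference was 1.05 ± 0.33 (adjusted p = 1), at ratios of 2.11, 1.57 and 2.70 between same-numbered arrays.

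On 102779_at Gadd45b had 271, 190 and 210 with peptide in BDC2.5/NOD, against 188, 168 and 134 with no peptide. The groups did not overlap here either, although the nearest arrays lay at 190 and 188. The log2 difference was 0.45 ± 0.29 (adjusted p = 1). Both Gadd45b probe sets were thus among the 2.33% of probe sets with higher, non-overlapping values in NOD, and also among the 0.33% with this pattern in both strains.

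Gadd45g in BDC2.5/NOD had 46.6, 44.7 and 48.3 with peptide, against 44.7, 46.4 and 36.9 with no peptide, and the ranges overlapped (log2 difference 0.13 ± 0.15, adjusted p = 1). Gadd45a had 114, 131 and 215 with peptide in BDC2.5/NOD, against 76.4, 141 and 137 with no peptide. Its ranges overlapped as well, arrays numbered 1 and 3 being higher with peptide and that numbered 2 lower (log2 difference 0.37 ± 0.37, adjusted p = 1).

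**Figure D2:**
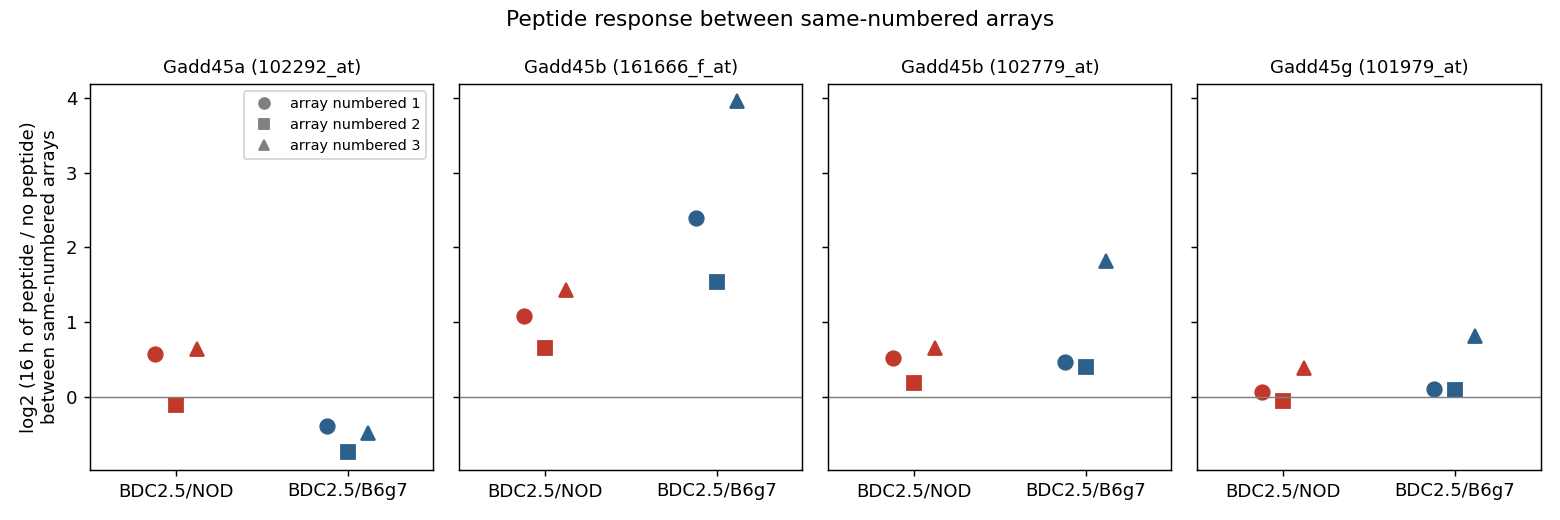
Log2 ratio of 16 h of peptide over no peptide between same-numbered arrays, for each probe set, in BDC2.5/NOD (red) and BDC2.5/B6g7 (blue), with marker shape giving the number. On 161666_f_at all 6 ratios lie above 0, from 0.65 to 3.96, and for Gadd45a the 3 B6g7 ratios lie below 0 while 2 of 3 NOD ratios lie above it.

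Averaged over both strains, Gadd45b on 161666_f_at rose with peptide, by 1.84 ± 0.24 on the log2 scale (adjusted p = 0.0136), 1 of 4 members called against 0.0242% of all probe sets. The call was kept in 14 of 16 fits that left out 1 array, and was lost when the B6g7 array numbered 1 with peptide (adjusted p = 0.0574) or the NOD array numbered 1 with no peptide (0.0693) was left out. The other members gave 0.67 ± 0.20 (Gadd45b on 102779_at), 0.23 ± 0.11 (Gadd45g) and -0.08 ± 0.26 (Gadd45a), each at adjusted p = 0.998.

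The difference between the responses (NOD minus B6g7) passed the test for no Gadd45 probe set and for 0% of all probe sets (limma called 0 of 12422, with 147 at an unadjusted p under 0.05). On 161666_f_at it was -1.58 ± 0.47 (adjusted p = 1), rank 6 of all probe sets by p. Gadd45a had the opposite sign, at 0.91 ± 0.52 (adjusted p = 1). Gadd45b on 102779_at gave -0.44 ± 0.40 and Gadd45g gave -0.21 ± 0.21.

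The strain comparison at 16 h of peptide (BDC2.5/NOD against BDC2.5/B6g7) gave Gadd45a and Gadd45b opposite signs, and Gadd45b on 161666_f_at was the 1 member that passed the test. Gadd45b on 161666_f_at was lower in NOD, with 47.8, 48.1 and 44.3 in BDC2.5/NOD against 161, 92.7 and 237 in BDC2.5/B6g7. The groups did not overlap, and the NOD arrays spread far less, with a log2 SD of 0.066 in NOD and 0.68 in B6g7. On the log2 scale the difference was -1.71 ± 0.33 (adjusted p = 0.0391), 1 of 4 members called as lower against 0.37% of all probe sets. Its groups were among the 5.39% of probe sets with lower, non-overlapping values in NOD.

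The call for Gadd45b was kept in 8 of 16 fits that left out 1 array. It ended without either the B6g7 peptide array numbered 1 (adjusted p = 0.157) or that numbered 3 (0.183, at a log2 difference of -1.39), without any 1 of the NOD peptide arrays (0.142 to 0.163), without either wild-type B6g7 array (0.0607 and 0.0608), which enter only through the shared spread, and without the NOD array with no peptide numbered 1 (0.0642). The other Gadd45b probe set did not show the difference, with 271, 190 and 210 in BDC2.5/NOD against 235, 174 and 400 in BDC2.5/B6g7 (log2 difference -0.20 ± 0.29, adjusted p = 1). Without the last-numbered arrays its sign turned, to 0.17, and 161666_f_at gave -1.35 (adjusted p = 0.0521).

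Gadd45a was higher in NOD at 16 h of peptide on every array, with 114, 131 and 215 in BDC2.5/NOD against 56.8, 68.1 and 84.1 in BDC2.5/B6g7. The groups did not overlap, as for 6.45% of all probe sets in that direction, and same-numbered arrays differed by 2.01-fold, 1.92-fold and 2.55-fold. The log2 difference was 1.10 ± 0.37 and missed the threshold (adjusted p = 0.532). It passed with the array class (last-numbered or not) as a term (adjusted p = 0.0315). With the replicate number as a block it was 1.10 ± 0.19 and passed (adjusted p = 0.0134), as 1 of 2 Gadd45 probe sets called there, against 1.04% of all probe sets, while 161666_f_at of Gadd45b stayed called (adjusted p = 0.0346). With the block over the 12 BDC2.5 arrays alone, a setting added after seeing the data, Gadd45a gave adjusted p = 0.00605. Gadd45g gave -0.11 ± 0.15 (adjusted p = 1).

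The marker lists were also compared between the same arrays, where 4225 of 8251 genes were higher in NOD and limma called 61 of 12422 probe sets. Of the 12 double-positive markers 11 were higher in NOD at 16 h (median log2 difference 0.38), and the 1 called was the 1 lower, the CD8 beta chain gene Cd8b1 at -2.02 ± 0.36 (adjusted p = 0.0247). Their summed intensity was 12290 to 13570 in BDC2.5/NOD and 9551 to 13870 in BDC2.5/B6g7. Of the 11 myeloid and dendritic markers 9 were lower in NOD (0 called), and their sum was 480 to 511 in BDC2.5/NOD and 593 to 615 in BDC2.5/B6g7. Of 7 measured B cell markers 5 were lower in NOD and 1 was called, the Src family kinase gene Blk at -1.38 ± 0.21 (adjusted p = 0.0117), and their sum was 1103 to 2032 in BDC2.5/NOD and 1578 to 1746 in BDC2.5/B6g7. The double-positive sums and the B cell sums thus overlapped between strains. Of the other lists, 5 of 7 thymic epithelium and 6 of 8 mesenchyme and endothelium markers were higher in NOD. So were 1 of 4 erythroid and 2 of 5 NK and innate markers, with 0 called. Cd8b1 and Blk are named after their values were seen, and the part of these markers in the Gadd45 differences was not tested.

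**Figure D3:**
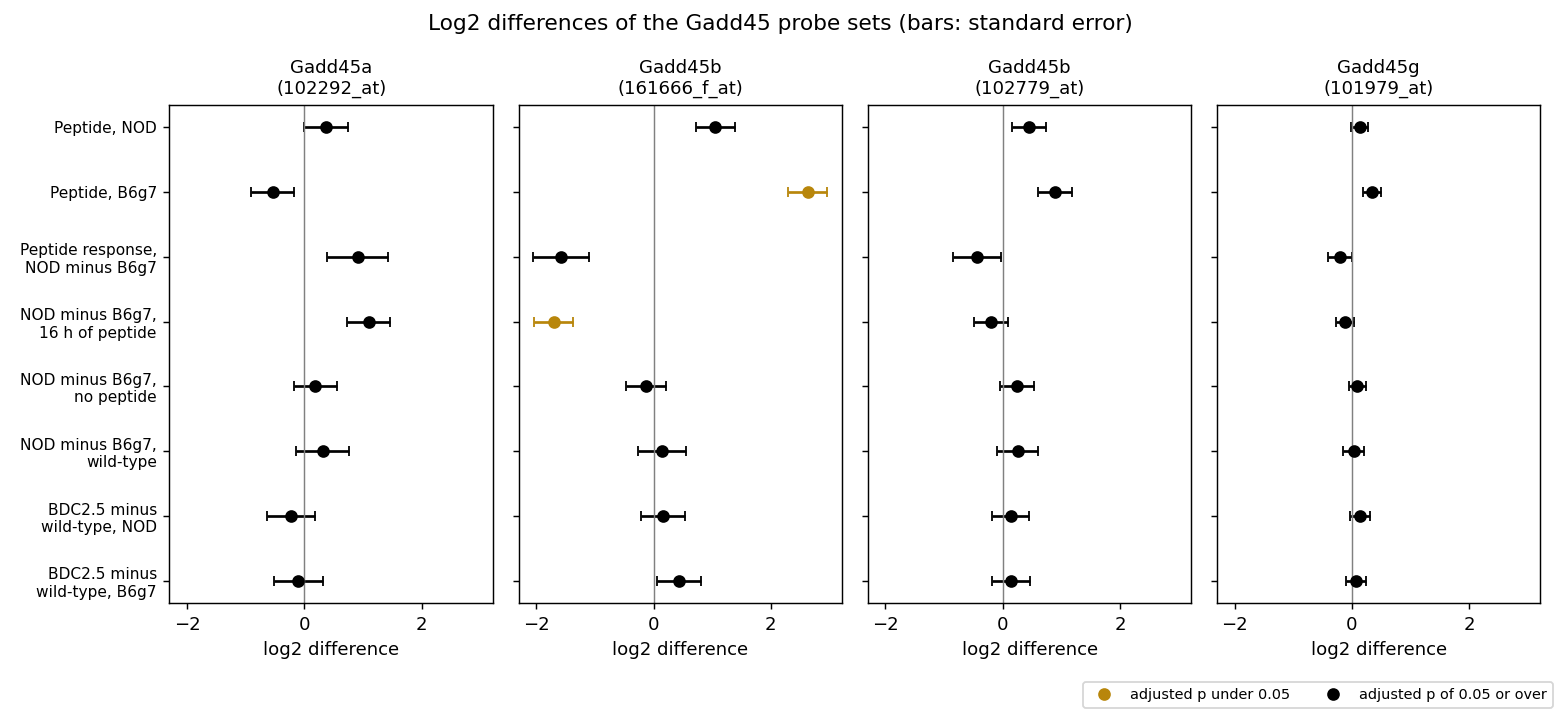
Log2 differences of the 4 Gadd45 probe sets in 8 comparisons, with standard errors as bars and gold points for an adjusted p under 0.05 in the fit without a replicate block. Gold points are those of 161666_f_at for the B6g7 peptide response (2.63) and for NOD minus B6g7 at 16 h (-1.71).

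Without peptide no Gadd45 probe set passed the test between strains. In BDC2.5 cells with no peptide 0 of 4 members were called, against 0.266% of all probe sets, and the log2 differences (NOD minus B6g7) were 0.19 ± 0.37 for Gadd45a, -0.13 ± 0.33 and 0.24 ± 0.29 for Gadd45b on 161666_f_at and 102779_at, and 0.09 ± 0.15 for Gadd45g. A p above the threshold does not show that levels were equal. For 161666_f_at the sign turned when single arrays were left out.

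In wild-type cells 0 of 4 were called, against 0.0886% of all probe sets. Gadd45a had 86.1 and 206 in wild-type NOD, against 78.8 and 146 in wild-type B6g7, so that arrays of 1 strain differed more than the strains did (log2 difference 0.31 ± 0.45). Gadd45b on 161666_f_at had 23.95 and 16.95 in wild-type NOD, against 18.4 and 17.9 in wild-type B6g7, and on 102779_at 179 and 122 in NOD, against 142 and 108 in B6g7. Gadd45g had 44.4 and 33.7 in wild-type NOD, against 37.4 and 38.5 in wild-type B6g7.

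The transgene comparison set BDC2.5 cells with no peptide against wild-type cells of the same strain. It called 0 of 4 members in NOD, against 0.0564% of all probe sets, and 0 of 4 in B6g7, against 0.0805%. On 161666_f_at the log2 difference was 0.16 ± 0.37 in NOD and 0.44 ± 0.37 in B6g7, with BDC2.5/B6g7 arrays at 30.6, 31.9 and 15.3 and wild-type B6g7 arrays at 18.4 and 17.9. For Gadd45a it was -0.22 ± 0.41 in NOD and -0.10 ± 0.41 in B6g7, and both turned to 0.27 and 0.23 without the last-numbered arrays.

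Ordered by mean log2 level, the 6 groups fell into a different sequence for each gene. On 161666_f_at of Gadd45b the order ran upward over wild-type B6g7 (4.18), wild-type NOD (4.33), BDC2.5/NOD with no peptide (4.49), BDC2.5/B6g7 with no peptide (4.62), BDC2.5/NOD with peptide (5.55) and BDC2.5/B6g7 with peptide (7.25). The wild-type groups and the BDC2.5 groups with no peptide overlapped with their neighbours among these 4, and each peptide group stood clear of the one below it. On 102779_at the 2 peptide groups again had the highest means, at 7.79 in NOD and 7.99 in B6g7, and overlapped each other. Between neighbouring groups, only the step from BDC2.5/NOD with no peptide to BDC2.5/NOD with peptide was free of overlap. The lowest B6g7 array with peptide (174) lay below the highest BDC2.5/NOD array with no peptide (188) and the highest wild-type NOD array (179). For Gadd45g neighbouring groups overlapped throughout, from 5.25 in wild-type B6g7 to 5.65 in BDC2.5/B6g7 with peptide. For Gadd45a they also overlapped throughout, but BDC2.5/B6g7 with peptide was the lowest group (6.10) and BDC2.5/NOD with peptide the highest (7.2).

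Array by array, the members varied in different ways. Gadd45a was highest on the last-numbered array in 5 of 6 groups and lowest on it in 0, lying on average 0.69 (log2) above the other arrays of the group. Gadd45b was lowest there in 5 of 6 groups on 161666_f_at and in 4 of 6 on 102779_at, the exception on top in both being BDC2.5/B6g7 with peptide. These are the arrays with the lower beta-actin 3' to 5' difference, and the part of whatever set them apart in the levels was not tested. Over the 16 arrays, which share groups and array class, the correlation between both Gadd45b probe sets was 0.83, and that of Gadd45g was 0.90 with 102779_at and 0.81 with 161666_f_at. Gadd45a gave -0.45 with 161666_f_at, -0.35 with 102779_at and -0.27 with Gadd45g. Over the 10 arrays that were not last-numbered, the correlation between both Gadd45b probe sets was 0.54 and that of Gadd45g with them was 0.64 and 0.44. There Gadd45a gave -0.36 with 161666_f_at, -0.11 with 102779_at and 0.28 with Gadd45g, so that its sign with Gadd45g turned.

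The genes most like each member were taken by Pearson correlation of log2 values over the 16 arrays, as a description. For 161666_f_at of Gadd45b they were Relb (0.96), a subunit of the alternative NF-kB pathway, Nr4a1 (0.94), an orphan nuclear receptor induced by T cell receptor signals, and Smyd5 (0.94, also an _f_at probe set). Over the 10 arrays that were not last-numbered these correlations were 0.94, 0.98 and 0.89. For 102779_at they were Ptpn13, a tyrosine phosphatase, Hspa4, a heat shock protein, and Junb, an AP-1 subunit, each at 0.92. Over those 10 arrays they gave 0.83, 0.76 and 0.97. For Gadd45g they were the glycolytic enzyme Eno3 (0.92), the autophagy adaptor Sqstm1 (0.91) and the death gene Bcl2l11 (0.90), at 0.58, 0.41 and 0.61 over those 10 arrays. For Gadd45a they were the sugar transporter Slc35a1 (0.95), Lamtor3 (0.92) and Smim14 (0.91), at 0.95, 0.89 and 0.89 over the 10 arrays.

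Relb values show how close the likeness was. On 103091_at Relb had 111, 117 and 111 with peptide in BDC2.5/NOD, against 93.3, 89.3 and 73.7 with no peptide, and 168, 135 and 292 with peptide in BDC2.5/B6g7, against 114, 94.6 and 76.4 with no peptide. The same B6g7 array, that numbered 3 with peptide, was on top. On the log2 scale the difference was 0.41 ± 0.24 in NOD (adjusted p = 1) and 1.0 ± 0.24 in B6g7 (adjusted p = 0.516), and NOD minus B6g7 at 16 h was -0.73 ± 0.24 (adjusted p = 0.486), so Relb passed in none of these. Its other probe set, 162372_f_at, gave 0.05 ± 0.15 in NOD and 0.34 ± 0.15 in B6g7. There NOD minus B6g7 was -0.60 ± 0.15 at 16 h (limma adjusted p = 0.178) and -0.31 ± 0.15 with no peptide, neither past the threshold.

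**Figure D4:**
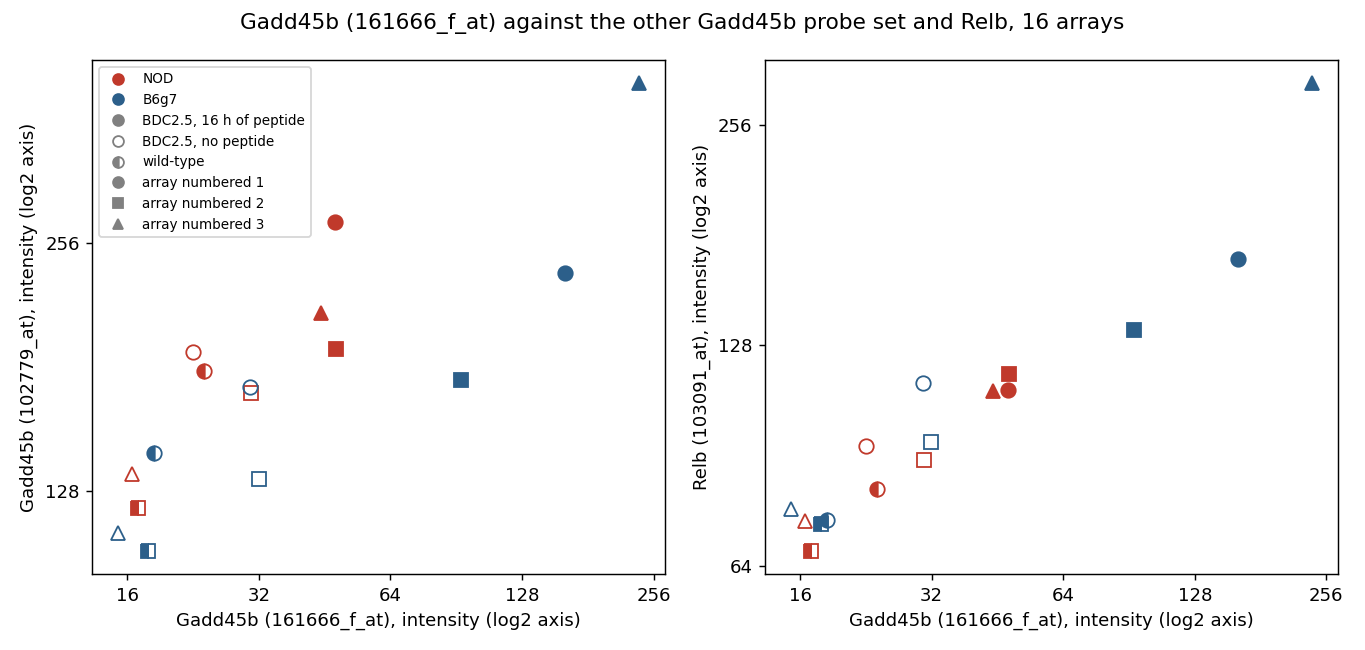
Intensity of Gadd45b on 161666_f_at (horizontal, log2 axis) against Gadd45b on 102779_at (left panel) and Relb on 103091_at (right panel) on the 16 arrays, red NOD and blue B6g7, filled for 16 h of peptide, open for no peptide and part-filled for wild-type. The B6g7 peptide array numbered 3 is at the top right of both panels, at 237 on the horizontal axis, 400 on 102779_at and 292 on Relb.

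Genes around the family in its pathway were counted from a list of 71, of which 57 were measured, each by its brightest probe set. None passed the test in any of the 9 comparisons, by limma. For the mean peptide response 22 were higher and 35 lower, with a median log2 difference of -0.03, against 3547 of 8251 genes higher and a median of -0.02 over all genes. An unadjusted p under 0.05 was found for 5 of the 57, against 317 of the 8251. Of 17 regulators upstream of Gadd45 genes 11 were higher (median 0.07), of 21 genes of the MAP kinase cascade 5 were higher (median -0.04), and of 17 cell cycle and DNA partners 5 were higher (median -0.05). The 3 other stress genes with GADD names (Ppp1r15a, Ddit3 and Ddit4) had a median of 0.05.

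The 6 pathway genes with the smallest p for the mean peptide response were these, none past the threshold. The NF-kB precursor gene Nfkb2 gave 0.72 ± 0.17 (adjusted p = 0.444) and Relb gave 0.71 ± 0.17 (adjusted p = 0.451). Myc, which represses Gadd45a, gave 0.59 ± 0.19 (adjusted p = 0.998), and the p38 target kinase Mapkapk2 gave 0.43 ± 0.19 (adjusted p = 0.998). Negative values came from the mitotic kinases Aurka, at -0.51 ± 0.13 (adjusted p = 0.51), and Cdk1, which Gadd45 proteins bind, at -0.32 ± 0.16 (adjusted p = 0.998). In NOD alone Nfkb2 gave 0.49, Myc 0.38 and Mapkapk2 0.07, and in B6g7 alone they gave 0.95, 0.80 and 0.80, with no difference between strains past the threshold (adjusted p = 1 for each).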

How the data were processed

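Per the files, the deposited table gives 1 linear intensity for each probe set on each array, between 7.77 and 14085. How the authors scaled the arrays, corrected background and summarised probes was not given in the sources used here, and neither were detection calls. Array medians differed by at most 0.113 (log2), less than the 0.2 above which arrays would have been rescaled. The scale was therefore kept, and log2 was taken with no pseudocount. Of 12488 probe sets, 66 controls were left out. Of the other 12422, the platform annotation named 1 gene for 10833, several for 396 and none for 1193.

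All 16 arrays entered 1 limma fit (version 3.58.1, R 4.3.3) with a mean for each group, lmFit and contrasts.fit, then eBayes with an intensity trend, leaving 10 residual and 3.6 prior degrees of freedom. The script was tested on simulated data. In each of 9 comparisons the two-sided p was adjusted over all 12422 probe sets (Benjamini-Hochberg), and one under 0.05 was called. A value after ± is the standard error of a difference or the SD of a group. The number of arrays limits the precision.

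Members, gene lists, tests and alternatives were chosen with earlier results of these data known. The rule named all member probe sets, the 6 pathway genes with the smallest p for the mean peptide response and the 3 genes most like each probe set. Of marker lists for 7 cell types, those of thymic epithelium, mesenchyme and endothelium, erythroid, and NK and innate cells had 0 members called by limma in any comparison.

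The array titles carry replicate numbers. Between peptide states, BDC2.5 arrays of the same number had correlated deviations from the group means (0.249 to 0.793 across probe sets), and so had they between strains (0.165 to 0.842). In each BDC2.5 group the last-numbered array was also the one with the lowest beta-actin difference. The check therefore cannot tell pairing from array class. A replicate block, which takes the numbers as pairs, was run as an alternative, though the labels state no pairing. Between BDC2.5 and wild-type arrays the correlation was -0.499 to 0.695, which gives no pairs.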

Additional observations from a re-analysis of the deposited data

How the results depend on the processing

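Without peptide, 161666_f_at was dim, which limits the size of its fold, and no detection call was at hand. Of the 4 Gadd45 probe sets, 1 was called in each of the B6g7 peptide, mean peptide and 16 h strain comparisons. For the B6g7 peptide response 0 were called with dim probe sets left out (a filter that removes 161666_f_at and Gadd45g, so that they have no value), with no intensity trend, in a fit of only the groups compared, and with a block over the 12 BDC2.5 arrays alone, a setting chosen after seeing the data. The log2 difference of Gadd45b on 161666_f_at was 2.63 in the last 3, which cannot move it (adjusted p = 0.0835, 0.637 and 0.0757). It was 1.97 without the last-numbered arrays, 2.04 with 16 added before log2 and 2.25 with a floor of 32, and was called in each. For the mean response 0 were called with dim probe sets left out and with a floor of 32, where Gadd45b gave 1.40 (adjusted p = 0.0522). For the strains at 16 h 0 were called with dim probe sets left out, with no trend and with only the groups compared (Gadd45b at -1.71, adjusted p = 0.0681 and 0.106), and without the last-numbered arrays (-1.35, adjusted p = 0.0521). There 2 were called with the replicate block, with the array class (last-numbered or not) as a term and with the block over 12 arrays, Gadd45a joining at 1.10 (adjusted p = 0.0134, 0.0315 and 0.00605). The replicate block changed no other call, Gadd45b giving adjusted p = 0.0332 for the B6g7 response and 0.0197 for the mean. Over all probe sets, calls at 16 h between strains numbered 61, and 129 with the block, 144 with the class term, 156 with the block over 12 arrays, 36 without the last-numbered arrays, 34 with the floor, 28 with dim probe sets left out and 22 with only the groups compared. Calls for the mean response numbered 3, and 7 with the block, 8 with the class term and 0 with the floor. For the B6g7 response they numbered 1, and 0 to 4 over these settings. With 1 array left out they numbered 15 to 58 between strains at 16 h (15 without the NOD peptide array numbered 1), 0 to 10 for the mean and 0 to 10 for the B6g7 response (10 in both without the B6g7 peptide array numbered 2). The causes were not tested.

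Leaving out 1 array at a time left 0 to 1 Gadd45 probe sets called in these 3 comparisons. On 161666_f_at Gadd45b ranged from 2.29 to 2.99 (B6g7 response), 1.67 to 2.02 (mean) and -2.06 to -1.39 (strains at 16 h). Signs turned for values that were never called. At 16 h between strains the ranges were -0.20 to 0.054 for Gadd45g and -0.47 to 0.13 for Gadd45b on 102779_at, and without peptide -0.020 to 0.48 for Gadd45a and -0.47 to 0.099 for Gadd45b on 161666_f_at. In wild-type cells they were -0.32 to 0.94 for Gadd45a, -0.17 to 0.23 for Gadd45g, -0.023 to 0.53 for Gadd45b on 102779_at and -0.099 to 0.40 on 161666_f_at. For the transgene in NOD they were -0.85 to 0.41 for Gadd45a, -0.065 to 0.33 for Gadd45g, -0.14 to 0.41 for Gadd45b on 102779_at and -0.090 to 0.41 on 161666_f_at, and in B6g7 -0.54 to 0.34 for Gadd45a and -0.054 to 0.34 for Gadd45b on 102779_at. The mean response of Gadd45a ranged from -0.23 to 0.0088. Without all last-numbered arrays the strain difference at 16 h turned to 0.17 for Gadd45b on 102779_at and 0.027 for Gadd45g, and the transgene difference to 0.27 (NOD) and 0.23 (B6g7) for Gadd45a and -0.0051 (NOD) for Gadd45b on 102779_at. The class term gave 0.0083 for Gadd45a in the B6g7 transgene comparison.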
